A study of Mus musculus with 6 samples.

Results

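Antiviral tripartite motif (TRIM) proteins were examined as 10 named genes, Trim12a, Trim12c, Trim14, Trim21, Trim25, Trim26, Trim30a, Trim30d, Trim34a and Trim56, out of 43432 gene IDs with deposited counts. The genes were chosen by name as innate immune TRIM genes, with earlier results of these data known, and all 10 were found in the count table. RNA sequencing had been done on medullary thymic epithelial cells (mTEC), the stromal cells that display tissue antigens to developing T cells, from thymi of C57BL/6 mice aged 4 weeks. Of the 6 libraries, 3 came from mice with 1 E241K and 1 normal copy of Copa (CopaE241K/+, called MUT) and 3 from Copa+/+ mice (WT), and no group carried any other allele or treatment. The Copa protein belongs to the COPI coat of vesicles that travel from the Golgi to the endoplasmic reticulum. The series asks, per its title, how the Copa mutation bears on the innate immune adaptor STING and on thymic type I interferon. The labels do not say whether a library is 1 animal or a pool, so each p-value reflects spread among libraries, which may be technical.

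TRIM proteins carry an amino-terminal RING, B-box and coiled-coil arrangement, and most of them are ubiquitin ligases. Type I interferons induce many TRIM genes, whose products tune the sensors and adaptors of innate immunity or bind incoming viruses directly. Mouse TRIM genes of the Trim5, Trim6, Trim12, Trim30 and Trim34 group lie side by side on chromosome 7, a locus that expanded separately in rodents and primates, so several mouse members have no single human counterpart.

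The sequence just around the transcription start is shown because it is what several of these genes share. RefSeq promoters (GRCm38.p6, 300 bases each) were matched for 9 of the 10 genes. They were searched on both strands for the core of the interferon-stimulated response element, spelled GAAA, then any 2 bases, then GAAA. This core was found in 7 of the 9 promoters and in 3.44% of all 32851 promoters in the same table. Its matches can overlap each other, and Trim21 and Trim26 each held 2 overlapping ones. The core of a STAT site, TTC, then any 3 bases, then GAA, was found in 0 of the 9 promoters and in 8.30% of all. A match is a description of letters and not a measured binding site. Each line gives 100 bases on the gene's own strand, 5′ to 3′, with the response element matches in capitals. For 8 genes the window runs from 70 bases before the RefSeq start to 30 after it. For Trim26 it runs from position -190 to position -91, counted from the start.
Trim30a: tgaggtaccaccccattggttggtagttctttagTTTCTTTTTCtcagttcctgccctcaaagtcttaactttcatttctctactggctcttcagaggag
Trim30d: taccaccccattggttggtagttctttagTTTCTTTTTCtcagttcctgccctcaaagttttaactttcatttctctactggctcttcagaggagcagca
Trim12a: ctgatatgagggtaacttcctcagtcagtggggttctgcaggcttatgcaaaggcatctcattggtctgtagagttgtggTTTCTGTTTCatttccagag
Trim12c: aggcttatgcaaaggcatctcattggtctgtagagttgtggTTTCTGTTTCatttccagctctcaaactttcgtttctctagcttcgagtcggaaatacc
Trim34a: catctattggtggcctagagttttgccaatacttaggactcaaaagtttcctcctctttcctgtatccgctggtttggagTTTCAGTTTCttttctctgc
Trim21: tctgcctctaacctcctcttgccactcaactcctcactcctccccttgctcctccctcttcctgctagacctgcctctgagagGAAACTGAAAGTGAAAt
Trim26: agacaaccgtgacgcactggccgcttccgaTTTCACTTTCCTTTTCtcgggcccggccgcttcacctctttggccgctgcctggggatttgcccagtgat
Trim25: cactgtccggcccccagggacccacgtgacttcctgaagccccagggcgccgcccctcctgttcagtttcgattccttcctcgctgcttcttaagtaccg
Trim56: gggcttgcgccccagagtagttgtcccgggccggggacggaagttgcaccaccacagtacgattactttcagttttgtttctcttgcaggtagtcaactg

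In these lines Trim30a and Trim30d carry the same 10-letter match, TTTCTTTTTC, at positions -36 to -27 and -41 to -32. Trim12a and Trim12c also carry 1 match in common, TTTCTGTTTC, which lies at positions 11 to 20 of Trim12a and -29 to -20 of Trim12c and is found in Trim5 as well, at -49 to -40. The Trim34a match is TTTCAGTTTC, and the 2 matches of Trim21 are GAAACTGAAA and GAAAGTGAAA. The Trim30a window is chr7:104465164-104465263, and the Trim21 window is chr7:102565453-102565552, both on the minus strand. A second RefSeq promoter of Trim30a held the core as well. Among the other TRIM genes of the chromosome 7 locus, the promoters of Trim6, Trim30b, Trim30c and Trim34b did not have these letters in the window.

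**Figure D1:**
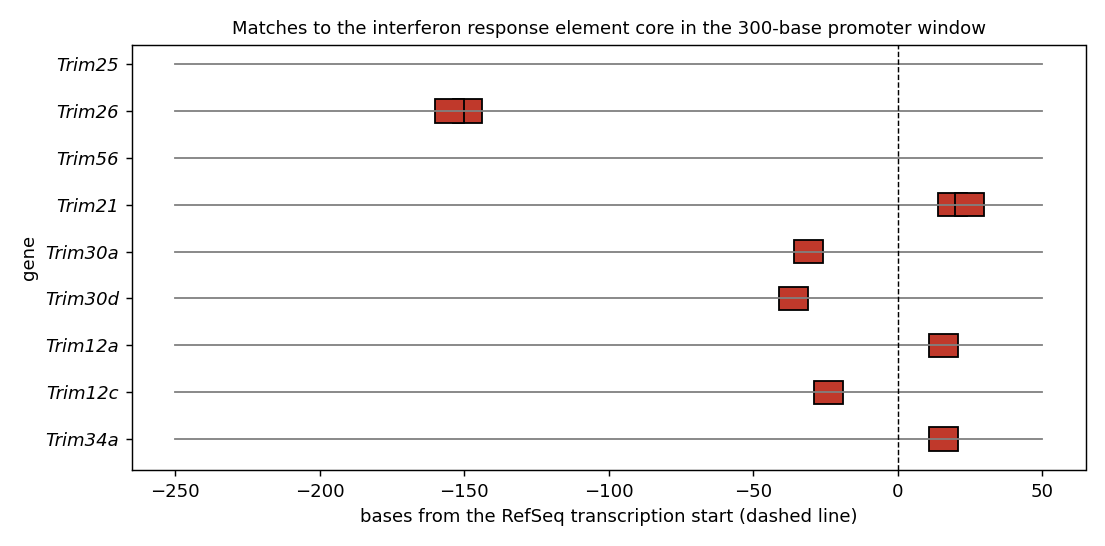
Matches to the interferon response element core (red boxes) are drawn at their distance in bases from the RefSeq start (dashed line) for the 9 genes with a matched promoter. Matches of 6 genes lie between positions -41 and 29, those of Trim26 lie farther upstream at -160 to -145, and Trim25 and Trim56 have none in the window.

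Library totals ran from 21218363 to 23366238 counts in MUT and from 19934513 to 22880945 in WT, and the 10 genes together took 0.0532% to 0.0767% of the counts in MUT and 0.0383% to 0.0661% in WT. Levels are given as CPM, counts scaled to the library total with TMM factors, and differences as the log2 fold change of MUT minus WT from edgeR's quasi-likelihood fit to 17172 genes. All 11 mTEC markers looked up, among them Epcam, Aire and Fezf2, were counted in every library. WT library 1 had the fewest genes with a count and stood apart from the other WT libraries for several TRIM genes, so their values are also given without it. It was singled out after seeing the data, in part from the values of the TRIM genes themselves. The fit called 0 of 17172 genes at an adjusted p of 0.05, and the biological coefficient of variation was 1.01. Copa itself had a log2 fold change of -0.20 (SE 0.34), which does not check the genotype, since E241K is a point change that gene counts do not show.

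As a group, 7 of the 10 TRIM genes had a log2 fold change above 0, against 49.4% of all tested genes, and their median was 0.74 against -0.01 for all genes. In 2 of them, Trim30a and Trim21, every MUT value exceeded every WT value, an order found in 5.39% of tested genes. None of the 10 had the opposite order, which 3.96% of tested genes had. The 10 were chosen with earlier results of these data known, so these shares are no unbiased background. No member passed edgeR's test, where 0% of genes were called and every member's adjusted p was 0.999875. Trim30a was the 1 member with an unadjusted p under 0.05, a level that 3.48% of tested genes reached. Libraries of the same number share an ending of their source name, whose meaning the labels do not give. Compared by that number, a view added after seeing the data, MUT was above WT in all 3 pairs for 6 of the 10 genes, Trim12a, Trim21, Trim25, Trim26, Trim30a and Trim30d, against 14.2% of tested genes. DESeq2 called none of the 10, against 0.621% of the genes it tested, and limma-voom called none of the 10 either. All 10 passed the filter on low counts. Trim14 and Trim21 did so with 3 MUT and 2 WT libraries over its level of 0.454 CPM where 3 libraries are needed, so neither would have passed on WT alone. Fewer cells expressing a gene and less RNA per cell cannot be told apart in these bulk libraries.

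**Figure D2:**
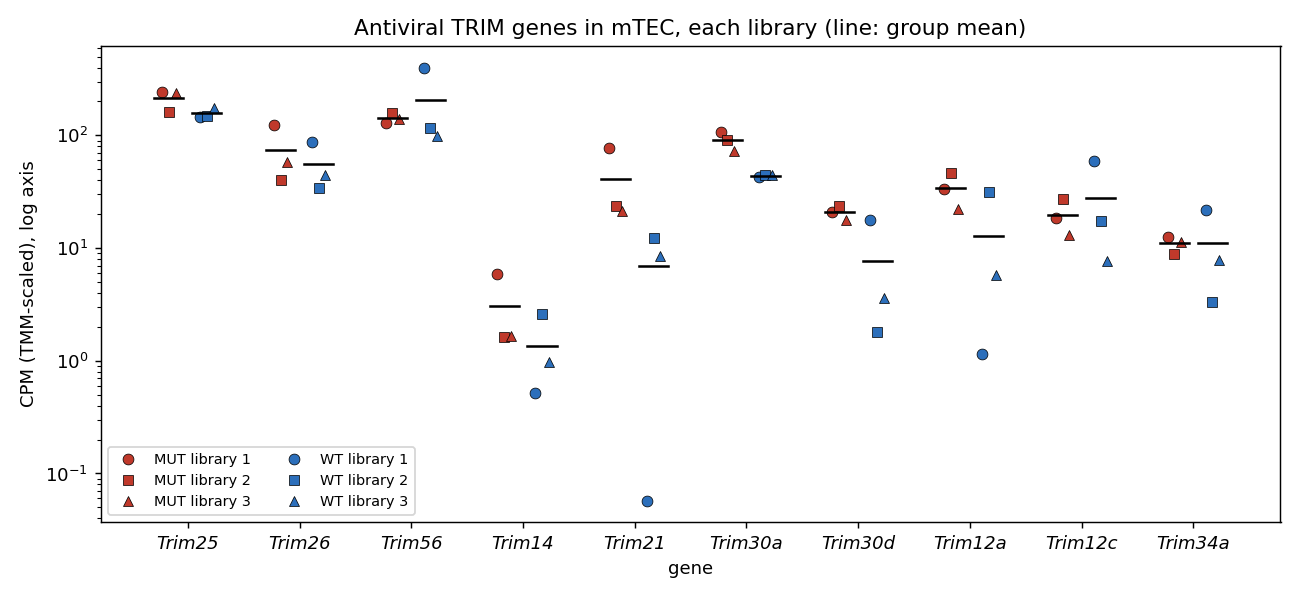
CPM on a log axis for each of the 10 genes, with MUT libraries in red on the left and WT libraries in blue on the right of each pair. Marker shapes give the library number and lines the group means. Trim21 and Trim30a are the 2 genes whose groups do not overlap, and the WT library 1 point of Trim21 stands at 0.0575 CPM.

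The genes of the Trim30 family are described first. Trim30a (ENSMUSG00000030921, chr7:104409025-104465193) is known in the mouse as a feedback inhibitor that is induced by Toll-like receptor signalling and lowers the adaptors Tab2 and Tab3, and it has also been described to act on STING. It measured 107, 91.0 and 73.2 CPM in MUT libraries 1, 2 and 3 and 42.9, 44.1 and 44.7 CPM in WT libraries 1, 2 and 3. The 3 WT values were almost the same, and the lowest MUT value stood well above them. The means were 90.2 ± 16.7 CPM in MUT and 43.9 ± 0.893 CPM in WT (SD, n = 3 each, as for all means below), a ratio of 2.06. The log2 fold change was 1.04 (SE 0.45), with an unadjusted p of 0.038 from edgeR's quasi-likelihood test. With any 1 library left out it stayed between 0.90 and 1.17. Only Trim25, at 0.35 to 0.60, had a range as narrow among the 10 genes.

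Trim30d (ENSMUSG00000057596, chr7:104470014-104507849) is the next gene of the cluster and a close relative. It measured 20.99, 23.8 and 17.9 CPM in MUT libraries 1, 2 and 3 and 17.9, 1.79 and 3.61 CPM in WT libraries 1, 2 and 3. WT library 1, at 17.87 CPM, stood barely within the MUT range, just above MUT library 3 at 17.85 CPM. The other WT libraries lay far below that range. The means were 20.9 ± 2.98 CPM in MUT and 7.76 ± 8.80 CPM in WT, and the log2 fold change was 1.43 (SE 1.05), or 2.94 without WT library 1 and 0.95 without WT library 2.

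Reads of the Trim30 genes can be divided among copies, and 8.53% of the 31-base stretches of annotated Trim30a transcripts are also found in Trim30d, while 9.19% of those of Trim30d are found in Trim30a. The copies Trim30b and Trim30c lie beside them. The MUT libraries 1, 2 and 3 held 271, 389 and 238 Trim30b counts and the WT libraries 1, 2 and 3 held 0, 23 and 15. The log2 fold change of Trim30b was 4.50 (SE 1.70), without overlap, an order that 5.39% of all tested genes had. For Trim30c, MUT libraries 1, 2 and 3 held 23, 21 and 419 counts and WT libraries 1, 2 and 3 held 0, 0 and 3, so MUT library 3 held most of its counts. Neither would have passed the count filter on WT alone, and the adjusted p of both was 0.999875 in edgeR. With the counts of all 4 genes summed, the family measured 141, 134 and 115 CPM in MUT and 60.8, 46.9 and 49.1 CPM in WT. The log2 fold change of the sum was 1.32 (SE 0.40), without overlap. The sum holds Trim30a itself and 2 genes tested only because of their MUT counts, so it is no independent support. In the refitted table the adjusted p of the sum by edgeR was 0.999846. Trim30a held 63.8% to 75.3% of the family's counts in MUT and 70.6% to 93.9% in WT. In WT library 1 Trim30d held 29.4% of them, above its share in any other library.

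**Figure D3:**
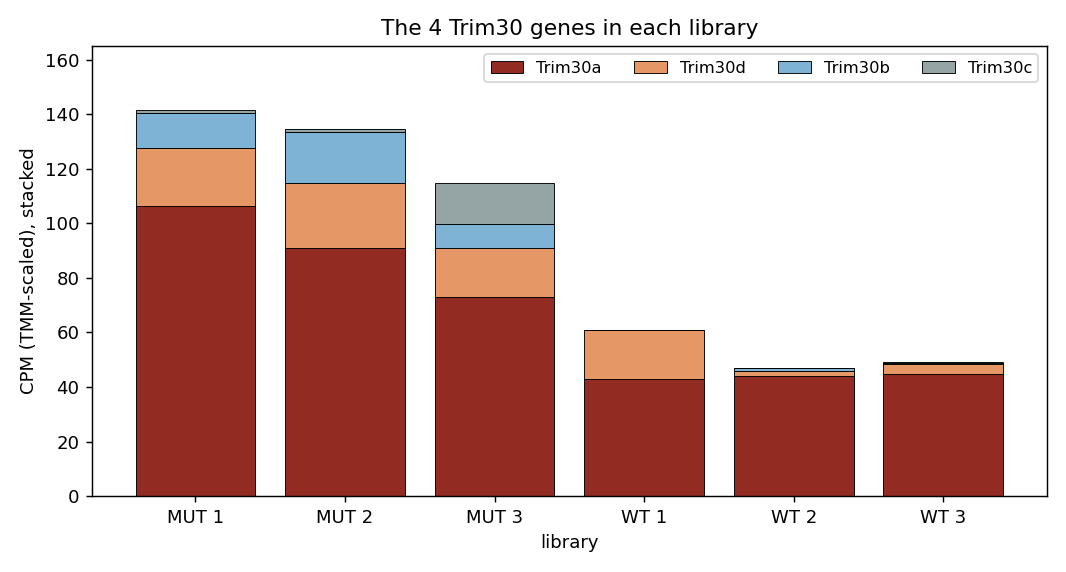
Stacked CPM of the 4 Trim30 genes in each library, MUT on the left and WT on the right. The summed bars stand at 115 to 141 CPM in MUT and 46.9 to 60.8 CPM in WT, with Trim30a the largest part of each bar.

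Trim21 (ENSMUSG00000030966, chr7:102557921-102565486) encodes a cytosolic receptor for antibody that marks antibody-coated virus for destruction. It measured 77.7, 23.5 and 21.2 CPM in MUT libraries 1, 2 and 3 and 0.0575, 12.3 and 8.49 CPM in WT libraries 1, 2 and 3. MUT library 1 held a far higher level than the other MUT libraries, and WT library 1 held 1 count against 193 and 261 in the other WT libraries. The means were 40.8 ± 32.0 CPM in MUT and 6.95 ± 6.26 CPM in WT. The log2 fold change of 2.55 (SE 1.25) was the largest of the 10 genes with all 6 libraries. It ran from 1.68 without MUT library 1 to 3.24 without WT library 2, and it was 1.97 without WT library 1, where Trim30d at 2.94 was larger. The MUT libraries in each of these fits lay above the WT libraries in it, as in 9.08% to 10.7% of the genes tested there. This follows from the same order with all 6 libraries, so it is no further support. Of its 31-base stretches 1.92% are shared with any other gene, and the part of copies in its count was not tested.

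The genes related to human TRIM5 and TRIM34 lie at lower coordinates than the Trim30 genes in the same locus, which holds 11 TRIM genes from Trim6 to Trim30e-ps1 over 316.6 kb, 5 of them described here. Human TRIM5 binds retroviral capsids, and mouse Trim12c has been described to work with the ubiquitin ligase Traf6 in interferon induction. Trim12a (ENSMUSG00000066258, chr7:104299894-104315466) measured 33.6, 46.5 and 22.04 CPM in MUT libraries 1, 2 and 3 and 1.15, 31.4 and 5.81 CPM in WT libraries 1, 2 and 3. Only WT library 2 reached into the MUT range. The log2 fold change was 1.41 (SE 1.03), or 3.27 without WT library 2 and 0.88 without WT library 1.

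Trim12c (ENSMUSG00000057143, chr7:104338754-104353362) had 18.3, 27.4 and 13.1 CPM in MUT libraries 1, 2 and 3 and 59.1, 17.2 and 7.70 CPM in WT libraries 1, 2 and 3. WT library 1, the lowest of all libraries for Trim12a, was the highest of all for Trim12c. The log2 fold change was -0.51 (SE 0.85), and it turned to 0.65 without WT library 1. Of the 31-base stretches of Trim12c, 38.7% are also found in Trim5 and 11.2% in Trim12a, so the separate counts are uncertain. Trim12a and Trim12c summed gave a log2 fold change of 0.40 (SE 0.64), and with Trim5 added, a sum chosen after seeing the data, 0.10 (SE 0.60).

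Trim34a (ENSMUSG00000056144, chr7:104244457-104262234), a relative of human TRIM34, measured 12.6, 8.91 and 11.4 CPM in MUT libraries 1, 2 and 3 and 21.9, 3.34 and 7.79 CPM in WT libraries 1, 2 and 3. WT library 1 was again the highest, and the MUT values stood between the WT values. Trim34a had a log2 fold change of 0.00 (SE 1.07) and 0.97 without WT library 1, and small changes of scaling turned its sign. Trim34b shares 48.7% of the 31-base stretches of Trim34a but was counted 1, 2 and 11 times in MUT and 0 times in each WT library, so summing the pair left the log2 fold change at 0.02. Another 21.4% are found in Gm47248, which overlaps Trim34a on the opposite strand and has no deposited counts. In all 68.5% are shared with other genes. How shared reads were counted is not given, so the Trim34a count is uncertain.

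**Figure D4:**
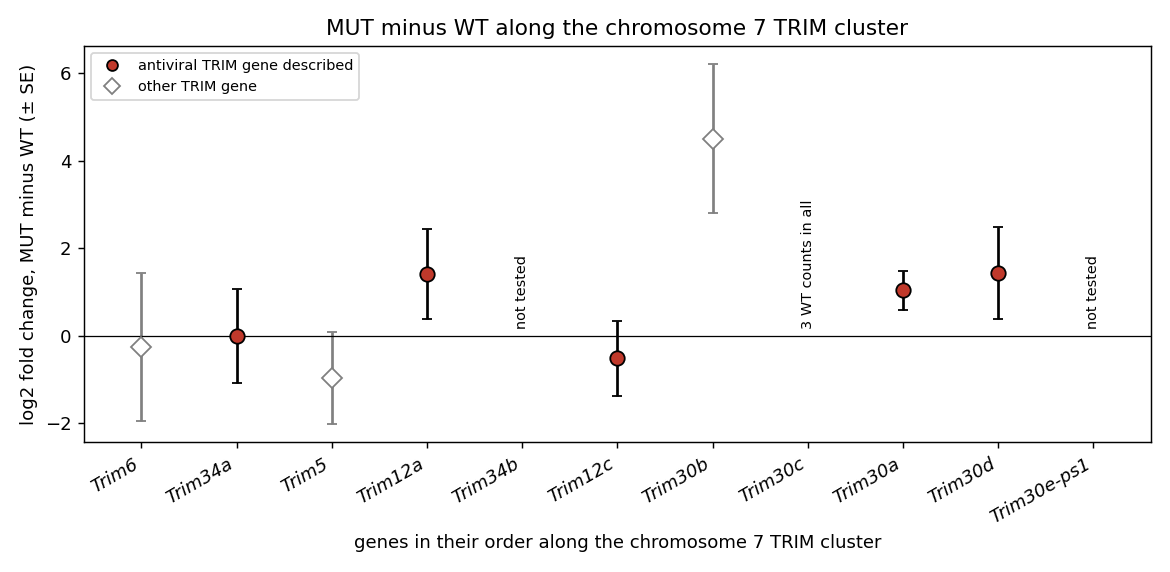
Log2 fold change, MUT minus WT, with its SE for the TRIM genes in their order along the chromosome 7 locus. Red circles mark the genes described and open diamonds the other tested genes. Trim12a, Trim30b, Trim30a and Trim30d stand above 0 by more than 1 SE, while Trim6, Trim34a, Trim5 and Trim12c lie within 1 SE of 0, and Trim30c is not drawn because it had 3 WT counts in all.

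The members outside chromosome 7 act on nucleic acid sensors and their adaptors. Trim25 (ENSMUSG00000000275, chr11:88999376-89020293) encodes the ubiquitin ligase that modifies the RNA sensor RIG-I and assists the zinc finger antiviral protein. It measured 240.3, 162 and 237 CPM in MUT libraries 1, 2 and 3 and 144, 149 and 176 CPM in WT libraries 1, 2 and 3. MUT libraries 1 and 3 lay above every WT library, and MUT library 2 fell within the WT range. The means were 213 ± 44.2 CPM in MUT and 157 ± 17.2 CPM in WT, with a log2 fold change of 0.44 (SE 0.34).

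Trim56 (ENSMUSG00000043279, chr5:137105644-137116209) encodes a ubiquitin ligase that has been described to act on STING and on the DNA sensor cGAS. It measured 129, 158 and 140.2 CPM in MUT libraries 1, 2 and 3 and 399, 116 and 99.2 CPM in WT libraries 1, 2 and 3. The MUT values were close to each other, while WT library 1 stood far above all others. Its log2 fold change was -0.52 (SE 0.50) and turned to 0.40 (SE 0.38) without WT library 1.

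Trim26 (ENSMUSG00000024457, chr17:36837134-36859398) encodes a ubiquitin ligase that has been linked to the transcription factor IRF3. It measured 123, 40.2 and 58.4 CPM in MUT libraries 1, 2 and 3 and 86.9, 34.1 and 44.9 CPM in WT libraries 1, 2 and 3. In both genotypes library 1 was the highest and library 2 the lowest, and the groups overlapped. For Trim26 the log2 fold change was 0.42 (SE 0.57) and turned to -0.17 without MUT library 1.

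Trim14 (ENSMUSG00000039853, chr4:46493781-46536141) encodes a TRIM protein that lacks the RING domain and serves as an adaptor beside MAVS and cGAS. It was counted rarely, with 124, 34 and 46 counts in MUT libraries 1, 2 and 3 and 9, 55 and 22 in WT libraries 1, 2 and 3. MUT library 1 held the highest value, and the rest overlapped. Its log2 fold change was 1.16 (SE 1.81), or 0.27 without MUT library 1 and 2.02 without WT library 2. Trim14 overlaps Nans on the opposite strand, and 30.4% of its 31-base stretches are found in Nans transcripts. The Nans counts ran from 597 to 1187 in MUT and from 441 to 2215 in WT. The strand setting of the counting is not given in the sources used here, so the Trim14 count is uncertain.

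**Figure D5:**
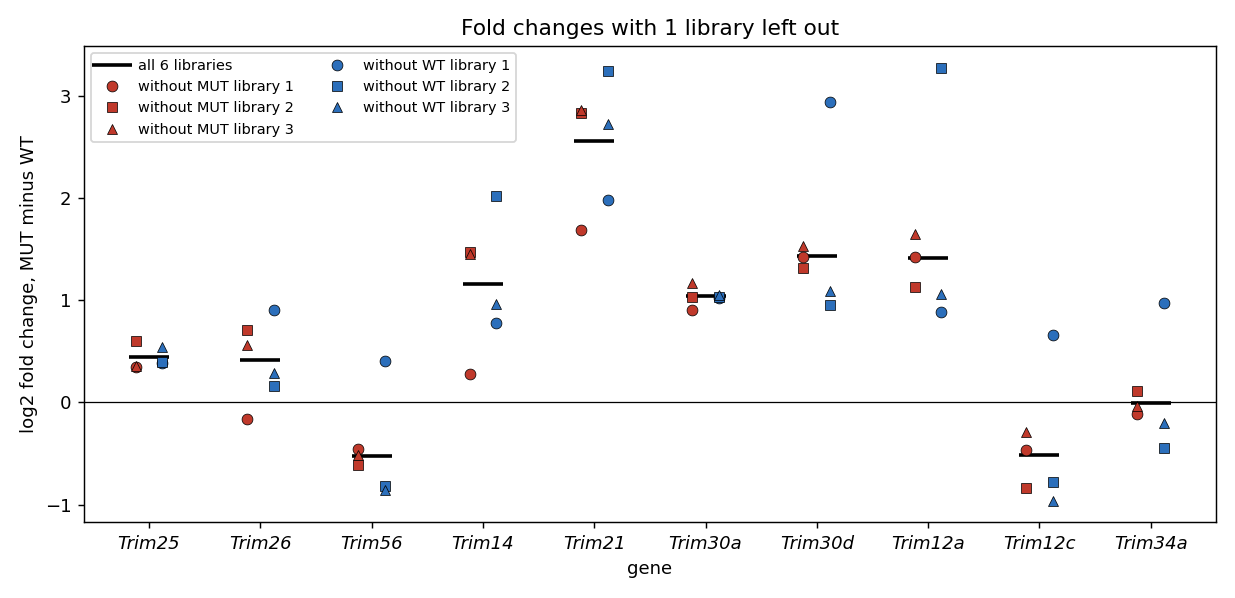
Log2 fold change of each gene with all 6 libraries (black bars) and with 1 library left out (red, a MUT library; blue, a WT library). Trim30a and Trim25 move little, while leaving out WT library 1 lifts Trim56, Trim12c, Trim34a and Trim30d and lowers Trim21 and Trim12a.

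WT library 1 held the highest WT value of Trim12c, Trim26, Trim30d, Trim34a and Trim56 and the lowest of Trim12a, Trim14, Trim21, Trim25 and Trim30a. It did not stand apart in all of them. WT library 2 lay farthest from the other WT libraries for Trim12a and Trim14, and WT library 3 for Trim25. The WT values of Trim30a were almost the same. WT library 1 also had the fewest genes with a count, 17174, against 19329 to 24774 in MUT and 19558 and 21755 in the other WT libraries, and the part of this in the results was not tested. Without it all 10 log2 fold changes were above 0, against 52.4% of the genes tested in that fit, whose median moved to 0.05. Because WT library 1 was singled out in part from these genes' own values, the counts without it are a description and not independent support. Leaving out its high values of Trim12c, Trim26, Trim30d, Trim34a and Trim56 raises their log2 fold changes by construction. With any other library left out, 6 to 8 of the 10 were above 0. The MUT libraries lay above both remaining WT libraries in the fit without WT library 1 for 5 genes, Trim21, Trim30a, Trim30d, Trim34a and Trim56, against 9.08% of the genes tested in that fit, and 0 genes of the whole table were called by edgeR, with 735 at an unadjusted p under 0.05.

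Per kilobase of annotated exon, Trim25 was the most abundant member in both genotypes, at 37.1 ± 7.68 CPM per kb in MUT and 27.2 ± 2.99 in WT. Its level lay above that of every other member in all 3 MUT libraries, whereas in WT the range of Trim56 reached over it through library 1. Trim30a stood in place 2 in MUT, at 21.9 ± 4.06 CPM per kb, and in place 3 in WT, at 10.7 ± 0.217. Trim21 stood in place 4 in MUT, at 11.0 ± 8.61 CPM per kb, and in place 9 in WT, at 1.87 ± 1.69. Trim14 was the lowest in both, at 0.702 ± 0.559 CPM per kb in MUT and 0.313 ± 0.251 in WT. In WT every pair of neighbours in this order overlapped. In MUT the neighbours did not overlap at 3 steps: below Trim25, below Trim30a and between Trim34a and Trim14.

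Centred log2 CPM values over the 6 libraries were averaged over the 10 genes, giving 0.95, 0.46 and 0.28 in MUT libraries 1, 2 and 3 and -0.63, -0.39 and -0.67 in WT libraries 1, 2 and 3. Among the members, Trim30a lay closest to this mean profile, with a root mean square difference of 0.13, and Trim21 farthest, at 2.43. Of 7778 other genes with a mean of at least 20 CPM, the 5 closest were Usp18, the protease that removes ISG15 (root mean square difference 0.12), Atp7a, a copper transporter (0.12), the oligoadenylate synthetase-like gene Oasl2 (0.18), Stam2 (0.19) and Gpr108 (0.20). Usp18 measured 251, 191 and 157 CPM in MUT libraries 1, 2 and 3 and 71.1, 105 and 75.2 CPM in WT libraries 1, 2 and 3. Oasl2 measured 1795, 1767 and 1565 CPM in MUT libraries 1, 2 and 3 and 625, 839 and 716 CPM in WT libraries 1, 2 and 3. In the same order of libraries, Atp7a measured 67.5, 38.0 and 38.8 CPM in MUT and 18.1, 23.7 and 18.3 CPM in WT. Stam2 measured 144, 96.7 and 83.6 CPM in MUT and 55.2, 49.2 and 58.9 CPM in WT. For Gpr108 the values were 114, 103 and 77.4 CPM in MUT and 38.3, 66.8 and 41.2 CPM in WT. With 6 libraries and 7778 genes some close profiles are found in any case, so the likeness is a description.

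Other TRIM genes are given for comparison. Of 17 further TRIM genes with known links to interferon, 15 were tested, 7 had a log2 fold change above 0 and the median was -0.17. In 3 of them the MUT libraries lay above the WT libraries: Trim30b, Trim30c and, named after its values were seen, Trim27, at 22.4 CPM in MUT and 10.6 CPM in WT on average. That order was found in 5.39% of all tested genes, and Trim30b and Trim30c were tested only because of their MUT counts. Pml, the TRIM gene that organises nuclear bodies, had a log2 fold change of 0.44 (SE 0.42). Of the remaining 42 TRIM genes 30 were tested, with 17 above 0 and a median of 0.04. In 0 of these 30 the MUT libraries lay above the WT libraries, and in 2, Trim36 and Trim43a, named after their values were seen, they lay below, an order that 3.96% of all tested genes had. edgeR called 0 in each of these lists, with 2 and 0 genes at an unadjusted p under 0.05, against 3.48% of all tested genes. The 2 were again Trim30b and Trim30c, so they are no independent support. Whether the lists differ from the 10 genes was not tested.

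Partners and substrates of the members formed a list of 21 genes, all of them tested. Of these, 10 had a log2 fold change above 0 and 11 below, with a median of -0.04, against 49.4% of all tested genes above 0. edgeR called 0, and 1 had an unadjusted p under 0.05, a level that 3.48% of all tested genes reached. That gene was Ifih1, which encodes the RNA sensor MDA5 and is also induced by interferon. It measured 158, 255 and 216 CPM in MUT libraries 1, 2 and 3 and 58.3, 124 and 114 CPM in WT libraries 1, 2 and 3, with a log2 fold change of 1.08 (SE 0.40). Its groups did not overlap, and 5.39% of all tested genes had that order. In a list of 21 genes, 1 such gene is near these shares. Ddx58, which encodes the Trim25 substrate RIG-I, had a log2 fold change of 0.44 (SE 0.52), and Mavs, the adaptor next to Trim14, 0.95 (SE 1.01). Tmem173, which encodes STING, had -0.55 (SE 0.38), and Cgas -0.09 (SE 1.27). Tab2 and Tab3, the Trim30a targets named above, had -0.33 (SE 0.37) and -0.77 (SE 0.74). The groups of these 6 genes overlapped.

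Leukocytes express several of these TRIM genes as well, so markers of other cells were set beside the results. The summed level of 11 dendritic cell and macrophage markers was 525 to 971 CPM in MUT and 599 to 1101 CPM in WT. Most of it was Lyz2, at 384 to 636 CPM in MUT and 387 to 722 CPM in WT, so it says little about the rest. The summed level of 11 thymocyte markers was 182 to 1156 CPM in MUT and 284 to 788 CPM in WT. That of 5 B cell markers was 20.6 to 80.1 CPM in MUT and 24.1 to 49.0 CPM in WT. No marker of these 3 lists was higher in all MUT libraries than in all WT libraries, and Adgre1 was lower. None of their markers was at 0 in all libraries, but Fcgr1 was at 0 in MUT library 2 and in WT libraries 1 and 2, Clec9a and the B cell marker Pax5 in WT library 1, Siglech in MUT library 1 and Ptcra in library 1 of both genotypes. MUT library 1 was the highest library for Trim14, Trim21, Trim25, Trim26 and Trim30a. It held 611 CPM of the myeloid markers, of which Lyz2 made 495 CPM, and 252 CPM of the thymocyte markers. Epcam, an epithelial marker, was at 418, 441 and 593 CPM in MUT libraries 1, 2 and 3 and at 629, 641 and 751 CPM in WT libraries 1, 2 and 3. Of the 11 mTEC markers it was the 1 with every MUT value below every WT value. That order was found in 3.96% of all tested genes. The other mTEC markers overlapped between the groups. Krt14, Aire, Cd80 and Cldn3 had a higher mean in MUT, and the rest had a lower one. The part of these markers in the TRIM results was not tested.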

How the data were processed

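Per the labels, RNA was extracted with a column kit, amplified to cDNA by Nugen Ovation and made into Nextera XT libraries. The deposited values are raw counts of reads, 1 row for each Ensembl gene ID and not normalized by the authors. The submitters' processing notes name STAR 2.4.2a, DESeq2 1.26.0 and GRCm38 with no role stated. How reads were counted, with which annotation and which strand setting, is not given in the sources used here. Molecular identifiers are not described, so counts are not independent molecules.

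Of 43432 gene IDs 42462 were matched to a symbol, and every sample column was used. MUT was compared with WT across all genes in R 4.3.3 with the quasi-likelihood test of edgeR 4.0.16 (robust setting). Libraries were scaled by TMM, low genes were removed by filterByExpr, genotype was the only term, and p-values were adjusted by Benjamini-Hochberg, with calls under 0.05. Log2 CPM used a prior count of 2. No 2 libraries agreed within sampling noise (lowest chi-square per degree of freedom 84.4). Positions, exon lengths and transcripts are those of GENCODE M21, and promoters those of RefSeq (GRCm38.p6).

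The members, lists and the rule for named genes were chosen with earlier results of these data known. The rule named the members, their chromosome 7 neighbours, Copa, non-overlapping list genes with a mean of at least 20 CPM, and the 5 closest profiles. Genes that illustrate the partner list were chosen by role. Mb21d1 was matched as Cgas. Alternatives were other scalings and filters, DESeq2 1.42.0, limma-voom 3.58.1, the replicate number as a block, each library left out, neighbours summed and an adjusted p of 0.1.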

Additional observations from a re-analysis of the deposited data

How the results depend on the processing

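The count of 0 called members held under every alternative run, and the count of 0 called genes became 73 (31 higher in MUT) without the filter on low counts and 116 (78 higher) with DESeq2. The cause was not tested. Those 2 fits also moved the all-gene median log2 fold change, -0.01, to 0.16 and 0.15. With the replicate number as a block edgeR called 1 gene of 17172 and no member. Deviations of libraries with the same number had correlations of 0.059 to 0.13, and 6 of 6 libraries correlated best with their own number, but the labels do not say what the number, or the source-name ending that goes with it, marks. The block moved Trim12a to 2.34 and Trim30d to 2.11, and limma-voom moved Trim21 to 3.80, Trim12a to 2.28 and Trim30d to 2.17. With 1 library left out, called genes stayed at 0 to 0, members above 0 ran from 6 to 10 and the members' median from 0.31 to 0.89. Members with all MUT above all WT libraries ran from 2 to 5 (9.08% to 12.6% of the genes tested in those fits). Apart from rescaling, leaving out a library can keep or add such members but not remove them, so that range is no check. With all 6 libraries that count was 2 (5.39% of tested genes), and it became 3 with upper-quartile factors and with the stricter filter.

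Of the members, Trim34a turned above 0 with upper-quartile factors (0.14), the stricter filter (0.0093), limma-voom (0.48), the replicate block (0.39) and neighbours summed (0.019), and without MUT replicate 2 (0.11) or WT replicate 1 (0.97); it ran from -0.45 to 0.97 with 1 library left out. Trim12c turned without WT replicate 1 (range with 1 library left out -0.96 to 0.65) and when summed with Trim5 and Trim12a (0.10). Trim56 turned without WT replicate 1 (range -0.86 to 0.40) and Trim26 without MUT replicate 1 (range -0.17 to 0.90). Of 133 member values under alternatives, 122 kept their direction and stayed short of the threshold, though not their size. Trim12a and Trim12c summed also stood above 0, at 0.40. The stricter filter removed Trim14. Whether depth or spread between libraries limits the rarely counted Trim14 was not tested.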
